A study of Drosophila melanogaster with 3 samples.

Results

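MicroRNA hairpin genes of Drosophila melanogaster were examined for binding of the GFP-tagged protein Insensitive in embryos. The members were all genes whose symbol in the Ensembl release 115 annotation of the dm6 assembly begins with mir-, which gave 262 of 17873 annotated genes (transposable elements and separately listed mature products left out). Their median length was 92 bp, and joining hairpins less than 2000 bp apart left 208 clusters, 26 of which held more than 1 hairpin. A hairpin was called bound when the summit of a thresholded peak lay within 2000 bp of it. The symbol rule uses no measured value, and no expression was measured, so a hairpin is a position in the genome here and not an active gene.

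The data are ChIP-seq peak lists from mixed-sex whole embryos aged 0 to 24 hours, all of 1 group with 3 biological replicates and no second condition. The flies were a transgenic line in which GFP is joined to the C terminus of the insv product, Insensitive, a BEN-domain co-repressor that works with Suppressor of Hairless in Notch signalling, and chromatin was precipitated with anti-GFP. Each replicate list and the pooled list held 30000 regions, peaks together with background, and the thresholded peaks, those that passed the authors' reproducibility cut, were the top of the pooled list. Values are ranks and the authors' own signal for each region, compared within a list only, and the sequencing depth behind them is unknown. Whole embryos mix many cell types and stages, so the cells in which a region was bound are not known. The labels call the replicates biological without saying whether each was a collection of its own.

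MicroRNAs are short RNAs cut from hairpins in longer transcripts, first by Drosha with Pasha and then by Dicer-1, and they guide Argonaute to messenger RNAs that pair with their seed, the bases near the 5′ end. A hairpin may have a transcript of its own or lie within the intron or exon of a host gene and share its promoter. In flies, several families pair with the K box, Brd box and GY box, short elements of messenger RNAs of the Enhancer of split and Bearded complexes, which are targets of Notch signalling.

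The 11 bound hairpins were mir-4918, mir-279, mir-996, mir-980, mir-275, mir-305, mir-ban, mir-282, mir-iab-4, mir-iab-8 and mir-9374. For each of them 1 mature arm is shown from 5′ to 3′, as annotated by RefSeq on the release 6 (dm6) assembly, with the seed (bases 2 to 8) in capitals. They are shown because the seed tells which of the bound hairpins belong to 1 family.
miR-279-3p: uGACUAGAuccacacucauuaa
miR-996-3p: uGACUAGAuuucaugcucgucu
miR-275-3p: uCAGGUACcugaaguagcgcgcg
miR-305-5p: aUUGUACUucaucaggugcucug
bantam-3p: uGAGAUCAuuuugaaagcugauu
miR-282-5p: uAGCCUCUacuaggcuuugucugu
miR-iab-4-5p: aCGUAUACugaauguauccuga
miR-iab-8-5p: uUACGUAUacugaagguauaccg
miR-980-3p: uAGCUGCCuugugaagggcuua
miR-4918-5p: gUGAGCACgauggccacauuuauu
miR-9374-5p: cGUGCAAUaauuuccucgauugg
Only mir-279 and mir-996 shared a seed among the arms shown, GACUAGA, which mir-286 also carries. The seed of miR-275-3p was shared with mir-306 and that of miR-980-3p with mir-4968, while the other arms shown had seeds found in no other annotated fly hairpin. The hairpins mir-iab-4 and mir-iab-8 occupy the same 68 bp on opposite strands.

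None of the K-box family's hairpins was bound, a count that at the share of 4.20% over all hairpins says nothing particular of the family. Those of the mir-13b-1, mir-13a and mir-2c cluster, shown here for their seed, came nearest to the threshold, and their 3p arms carry the seed AUCACAG, in capitals, which 14 hairpins share.
miR-13a-3p: uAUCACAGccauuuugaugagu
miR-13b-1-3p: uAUCACAGccauuuugacgagu
miR-2c-3p: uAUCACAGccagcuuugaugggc

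Stretches of the peaks are shown from the same assembly, on its plus strand. The first 3 surround the palindrome CCAATTGG, known as a binding site of the Insensitive BEN domain, which is in capitals with 30 bp to each side. They come from the peak near mir-4918 at chr3R:8306465-8306532, the peak near mir-980 at chrX:278508-278575 and the stronger peak near mir-275 and mir-305 at chr2L:7426681-7426748.
peak near mir-4918: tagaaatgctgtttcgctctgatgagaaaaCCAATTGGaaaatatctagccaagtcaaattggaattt
peak near mir-980: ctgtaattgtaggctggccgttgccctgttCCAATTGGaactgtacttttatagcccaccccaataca
peak near mir-275 and mir-305: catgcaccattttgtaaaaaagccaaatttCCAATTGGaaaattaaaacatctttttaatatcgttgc
The other 2 come from the locus of mir-279 and mir-996 and lack the palindrome. The first is the whole region upstream of both hairpins, chr3R:29214399-29214522, with the summit base in capitals, and the second reaches 100 bp to each side of the next summit, chr3R:29215443-29215643, with ATTGG, the reverse complement of CCAAT, in capitals.
upstream peak at mir-279: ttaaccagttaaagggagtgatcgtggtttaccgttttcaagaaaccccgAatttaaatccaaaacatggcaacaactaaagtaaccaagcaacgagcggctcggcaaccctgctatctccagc
second peak at mir-279: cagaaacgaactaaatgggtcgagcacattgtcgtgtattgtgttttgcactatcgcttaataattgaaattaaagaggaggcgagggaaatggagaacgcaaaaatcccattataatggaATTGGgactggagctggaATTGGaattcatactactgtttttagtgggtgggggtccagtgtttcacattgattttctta

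Few microRNA hairpins lay near a thresholded peak. The count was 11 of 262 hairpins (4.20%, Wilson 95% interval 2.36 to 7.36%, counting error only), next to 11 distinct peaks (1.50% of the thresholded list) at 8 loci. Under the same rule 1.86% of 860 other annotated non-coding genes shorter than 300 bp, 1.96% of the 100 bp tiles of the genome and 5.61% of protein-coding genes, measured from their starts, had a thresholded summit. Hairpins of 1 cluster are not independent, and counted by cluster the share was 8 of 208 (3.85%, 1.96 to 7.40%), beside 2.94% of 442 clusters of the other short non-coding genes. The interval by cluster thus holds the share of the other clusters. No test was made, because there is no second group and neighbouring genes share peaks.

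Not all of these peaks were strong in each replicate. When only peaks overlapped by the 1000 strongest regions of every replicate were kept, a filter added after the data were seen, 5 hairpins were bound, mir-4918, mir-279, mir-980, mir-275 and mir-305, and mir-282, mir-9374, mir-996, mir-ban and the mir-iab pair were lost. Under the same filter with a replicate left out, 7 hairpins were bound without replicate 1, 5 without replicate 2 and 9 without replicate 3. The mir-iab pair returned without replicate 1, and mir-282, mir-9374, mir-996 and mir-ban returned without replicate 3. The filter kept 479 of the thresholded peaks with all replicates, and 532, 517 and 578 without replicates 1, 2 and 3. The counts with a replicate left out are therefore to be read against the 5 hairpins under the full filter. Of the 479 peaks kept with all replicates 6 lay near hairpins, beside 11 peaks (1.50%) of the whole thresholded list. The filter thus also removed peaks away from hairpins. No share of other short non-coding genes or tiles was counted under it, so the 5 hairpins have no background to be read against. Why particular hairpins were lost under the filter was not tested.

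The share of hairpins with a thresholded summit grew with the distance allowed, as it did for the background. Within 500 bp it was 0.763% (2 hairpins), beside 0.698% of other short non-coding genes and 0.554% of tiles. Within 1000 bp it was 2.67%, beside 0.930% and 1.03%, and within 5000 bp 8.78%, beside 5.12% and 4.60%. Within 10000 bp the values were 14.9%, 11.3% and 8.69%. No summit of a thresholded peak lay inside a hairpin.

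**Figure D1:**
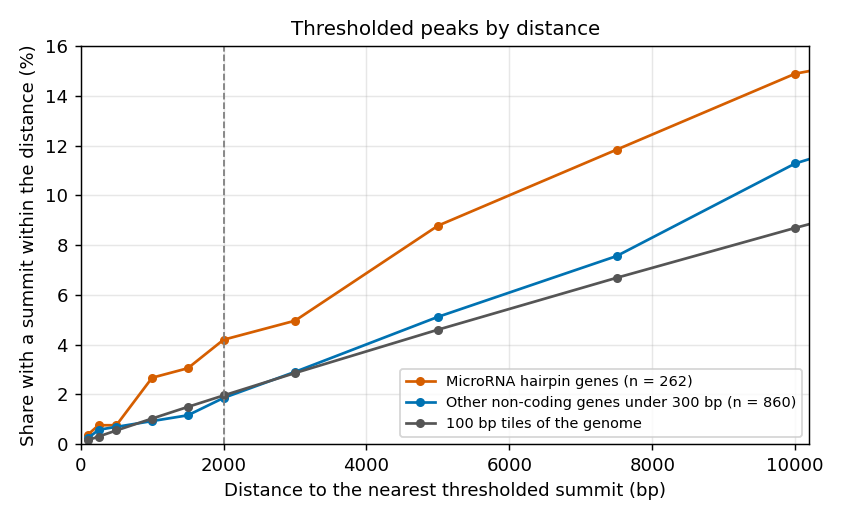
Share (%) of microRNA hairpin genes, of other non-coding genes under 300 bp and of 100 bp tiles that had a thresholded summit within the distance on the x axis (bp). The dashed line marks 2000 bp, where the shares were 4.20%, 1.86% and 1.96%.

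The strongest binding near any hairpin was at mir-4918 (FBgn0263550, 3R 8308431 to 8308485, minus strand), which lies in an intron of tex. The peak at 3R 8306318 to 8306624 had a signal of 486.9 and rank 22 in the pooled list. In replicates 1, 2 and 3 its overlapping region ranked 44, 14 and 29 of 30000, with signals of 162.7, 215.1 and 112.5. It was high in every replicate. The summit lay 1957 bp downstream of the hairpin, close to the limit of the rule, beyond the end of tex and 1200 bp upstream of the start of Sgt1, and the palindrome lay 21 bp from it. The second peak there, at 3R 8306467 to 8306882 with rank 198 and signal 180.4, overlaps the first, and its regions ranked 195 and 132 in replicates 1 and 2 but 15404 in replicate 3. The start of tex, 160 bp from the hairpin, had no thresholded summit within 500 bp.

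The hairpins mir-279 and mir-996, whose shared seed is printed above, had a pair of peaks at their host transcript. The microRNA miR-279 is known to limit the formation of CO2-sensing neurons, and miR-996 acts through the same seed. Both hairpins, mir-279 (FBgn0262448, 3R 29215585 to 29215684, plus strand) and mir-996 (FBgn0262404, 3R 29217184 to 29217280, plus strand), lie in exons of the long non-coding RNA gene lncRNA:CR31044. The upstream peak, at 3R 29214399 to 29214522, had rank 135 and signal 224.7, and its regions ranked 132, 182 and 147 in replicates 1, 2 and 3 with signals of 96.9, 72.3 and 55.1. These ranks lay close together. The summit was 113 bp upstream of the start of the host, 1136 bp upstream of mir-279 and 2735 bp upstream of mir-996. The second peak, at 3R 29215335 to 29215750 with rank 386 and signal 115.9, ranked 340, 427 and 1417 in replicates 1, 2 and 3, lowest in replicate 3. Its summit was 42 bp upstream of mir-279, the closest summit to any bound hairpin, and its region spans the whole hairpin. The nearest protein-coding start, that of eEF1gamma, was 4629 bp from this summit.

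A start of the host transcript was also the nearest annotated start for mir-ban and mir-282. The gene mir-ban (FBgn0262451, 3L 642208 to 642288, plus strand) makes bantam, which promotes growth and blocks cell death by repressing hid. Its peak at 3L 640600 to 641015 had rank 577 and signal 89.1, and its summit was 1400 bp upstream of the hairpin, inside the host lncRNA:CR43334, 1094 bp downstream of a start of that host. The overlapping regions ranked 410 and 671 in replicates 1 and 2 but 8797 in replicate 3. Replicate 3 instead had another region, of rank 523, within 2000 bp of the hairpin. For mir-282 (FBgn0262368, 3L 3251022 to 3251118, plus strand) the peak at 3L 3250121 to 3250536 had rank 595 and signal 87.2, and its summit was 693 bp upstream of the hairpin and 265 bp upstream of 1 of the 3 starts of the host lncRNA:CR43626. The overlapping regions with the nearest summit ranked 466, 2478 and 5028 in replicates 1, 2 and 3. The region ranked high in replicate 1 alone, although another overlapping region of replicate 2 ranked 616.

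The Hox-complex hairpins mir-iab-4 (FBgn0262462) and mir-iab-8 (FBgn0262290), at 3R 16856275 to 16856342, shared a weaker peak. Their microRNAs repress the homeotic genes Ubx and abd-A of the bithorax complex in which they lie. The peak at 3R 16857041 to 16857456 had rank 616 and signal 85.3, with the summit 907 bp downstream of mir-iab-4 and thus 907 bp upstream of mir-iab-8. Its region ranked 5241 in replicate 1, and 473 and 503 in replicates 2 and 3. Replicate 1 was the low one, with a signal of 18.9. The summit lay within MSAmiP and lncRNA:iab8, 27200 bp from the start of abd-A.

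The pair mir-275 (FBgn0262453, 2L 7425795 to 7425892, plus strand) and mir-305 (FBgn0262458, 2L 7425972 to 7426044, plus strand) lay next to 2 overlapping peaks at the start of muc, which encodes a subunit of pyruvate dehydrogenase. The microRNA miR-305 is known for its part in the maintenance of gut stem cells. The stronger peak, at 2L 7426440 to 7426855, had rank 353 and signal 124.6, and its regions ranked 336, 507 and 910 in replicates 1, 2 and 3. Its summit was 756 bp downstream of mir-275, 604 bp downstream of mir-305 and 218 bp upstream of the muc start. The weaker, at 2L 7426639 to 7427054 with rank 625 and signal 84.6, was 19 bp upstream of that start and ranked 917, 1100 and 910. These are the regions with the nearest summit, and in replicates 1 and 2 another region also overlapped each peak. In replicate 3 both peaks overlapped the same region. The start of the annotated host of mir-275, lncRNA:CR43857, was 2828 bp from the nearest of these summits.

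At mir-980 (FBgn0262266, X 280172 to 280269, minus strand), known as a suppressor of memory formation, the peak at X 278382 to 278797 had rank 343 and signal 128.1. Its regions ranked 414, 348 and 199 in replicates 1, 2 and 3, with signals of 48.1, 47.9 and 45.3. The summit was 1582 bp downstream of the hairpin, inside ewg, a transcription factor gene, 1044 bp downstream of its start and 1113 bp upstream of the start of CG3777, on whose opposite strand the hairpin lies. At mir-9374 (FBgn0283561, 2L 21238301 to 21238361, plus strand), in an exon of the nuclear receptor gene Hr39, the peak at 2L 21237850 to 21238265 had rank 675 and signal 79.5. Its regions ranked 374 and 481 in replicates 1 and 2, while no region of the replicate 3 list overlapped it. The summit was 243 bp upstream of the hairpin and 808 bp downstream of the Hr39 start.

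**Figure D2:**
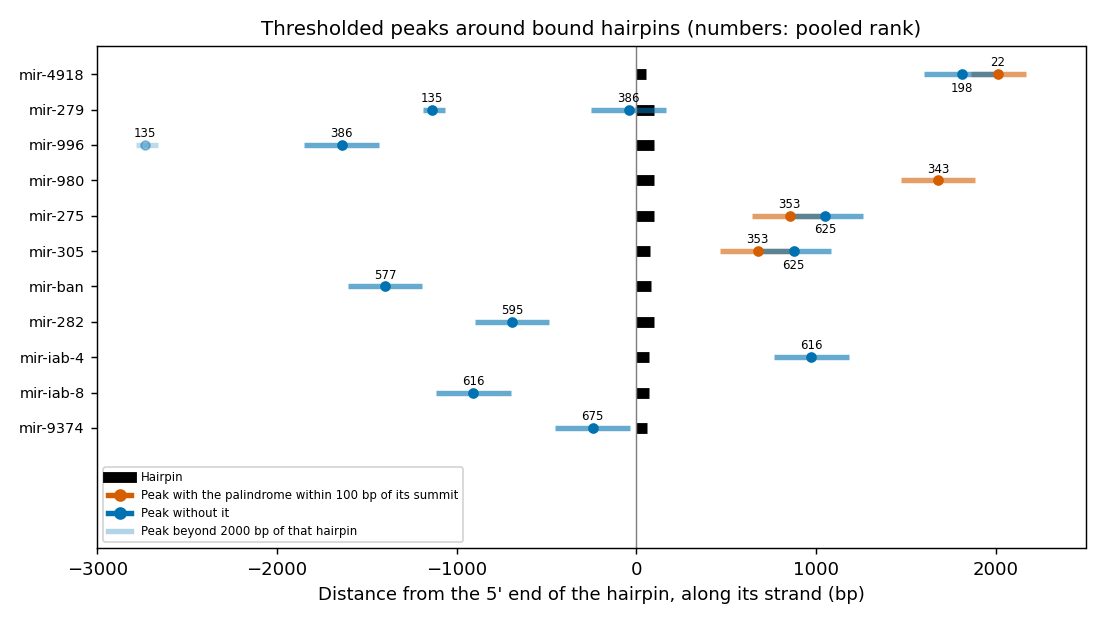
Position of thresholded peaks (coloured bars, dots at summits) relative to the 5′ end of each bound hairpin (black), in bp along the strand of the hairpin, with numbers giving the pooled rank. The peaks with the palindrome within 100 bp of the summit all lie downstream of their hairpins, and those at mir-279, mir-996, mir-ban, mir-282, mir-iab-8 and mir-9374 lie upstream.

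**Figure D3:**
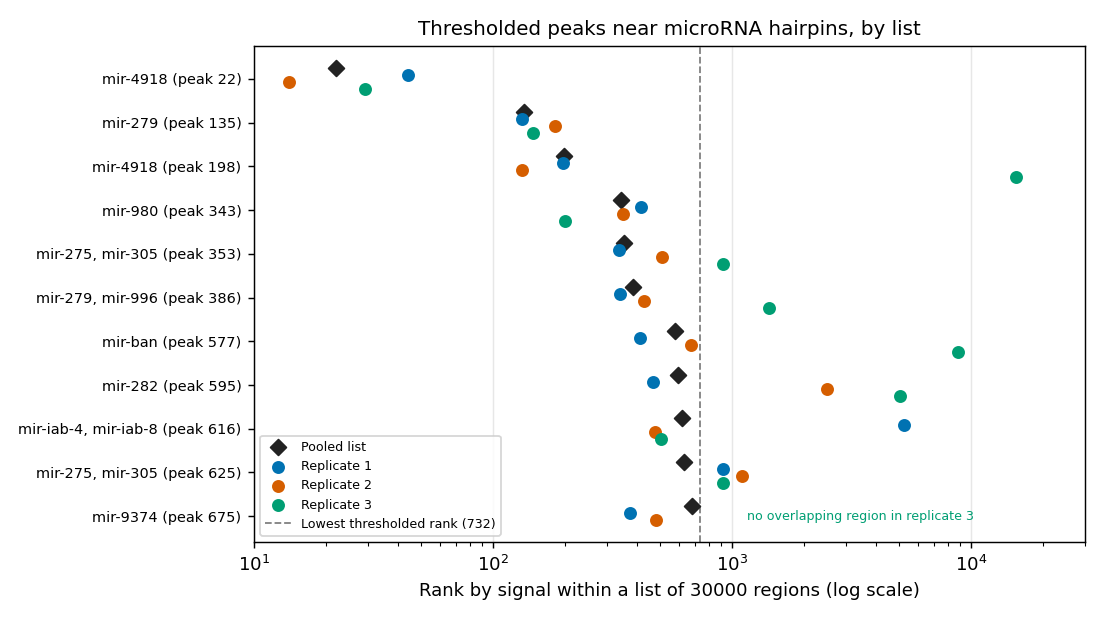
Rank by signal of each of the 11 peaks near hairpins in the pooled list (diamonds) and of the overlapping region with the nearest summit in each replicate list (circles), on a log axis, with the dashed line at the last thresholded rank. The strongest peak at mir-4918 and the upstream peak at mir-279 ranked within the first 200 regions of each list, while the peaks at mir-ban, mir-282, mir-iab and mir-9374 were far lower or absent in at least 1 replicate.

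Replicate recovery was uneven. Among the 1000 strongest regions, 12, 16 and 12 hairpins had a summit within 2000 bp in replicates 1, 2 and 3, and 6 of 262 had one in every replicate (2.29%, 1.05 to 4.91%). A summit in every replicate was also found for 1.40% of other short non-coding genes and 1.26% of tiles, while for single replicates no such share was counted. The 6 were mir-275, mir-305, mir-ban, mir-4918, mir-279 and mir-980, and mir-ban counted in replicate 3 through the other region named above. Without replicate 1 or without replicate 3 the count was 9, and without replicate 2 it was 6. The replicates were pooled to make the thresholded list, so this recovery is not independent of the call.

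The 11 peaks differed among themselves in their place and in their motifs. Their signals ran from 79.5 to 486.9 with a median of 115.9, while the thresholded list as a whole had a median of 121.7 and a minimum of 75.0. Only 2 of the 11 summits lay 500 bp or less from a protein-coding start (18.2%, 5.14 to 47.7%), both at muc, against 56.3% of all thresholded peaks, and 2 others lay as close to a non-coding start, at mir-279 and mir-282. Of the bound hairpins 5 of 11 (45.5%) were within 2000 bp of a protein-coding start, beside 110 of all 262 hairpins (42.0%). The best summit was upstream of the hairpin for 6 and downstream for 5 of the 11 hairpins. In 9 of 11 peaks the summit sat at the midpoint of the region, and each of these regions was 416 bp long. Whether such a summit marks a measured maximum is not known.

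Motifs were searched on both strands within 100 bp of each summit. The palindrome CCAATTGG was in 3 of 11 peaks (27.3%, 9.75 to 56.6%), beside 13.4% of all thresholded peaks and 0.950% of all pooled regions. It lay 21 bp from the summit at mir-4918, 45 bp at mir-980 and 63 bp at mir-275 and mir-305. CCAATAAG, known from the related Elba complex, was in 0 of 11, beside 7.79% and 0.737%. CAATCAGA was in 1 of 11, at mir-9374, beside 7.65% and 1.00%. The core CCAAT, which the palindrome contains, was in 7 of 11 peaks (63.6%, 35.4 to 84.8%), beside 58.9% of thresholded peaks. With 11 peaks none of these intervals excluded the share over all thresholded peaks. The peaks with the palindrome were the stronger ones near Sgt1 and muc and the one near ewg. Those at mir-279 and mir-996, mir-ban, mir-282, the mir-iab hairpins and mir-9374, in Hr39, had none. Neither had the weaker peaks near Sgt1 and muc within 100 bp of their summits.

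Hairpins were split by host. Of 136 hairpins in a protein-coding gene on the same strand 3 were bound (2.21%, 0.753 to 6.28%), and of 48 with a non-coding host and no such coding host 6 were (12.5%, 5.86 to 24.7%). Antisense to a coding gene 1 of 25 was bound, and without any host 1 of 53. Over all hairpins the share was 4.20%, and no share of other genes or tiles was counted for these host classes. Of hairpins inside a protein-coding gene on either strand 3.01% (5 of 166, 1.29 to 6.86%) were bound, beside 2.30% of tiles inside such genes. Outside them it was 6.25% (6 of 96, 2.90 to 13.0%), beside 1.28% of tiles outside. These 6 include mir-275 with mir-305 and mir-279 with mir-996, pairs that share a peak, so the interval counts hits that are not independent. The 6 bound hairpins with a non-coding host lie at 5 loci, since mir-279 and mir-996 share theirs, and the 2 strands at the mir-iab locus fall into different classes. So do mir-275, with a non-coding host, and mir-305, without any host, although they share their peaks. These counts are small and the difference between classes was not tested.

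Peaks were also counted at the starts of host genes, whether near the hairpin or far from it. Among non-coding hosts a thresholded summit lay within 500 bp of a start for 3 of 37 (8.11%, 2.80 to 21.3%), beside 1.36% of 2345 non-coding genes of 300 bp or more, and within 2000 bp for 6 of 37 (16.2%, 7.65 to 31.1%), beside 3.37%. These were lncRNA:CR31044 and lncRNA:CR43626 described above and lncRNA:iab8, host of mir-iab-8, with a peak of rank 145 and signal 215.1 that was 306 bp from 1 of its 8 starts, itself 43490 bp from the hairpin. Within 2000 bp there were also lncRNA:Hsromega, the heat-shock-inducible host of mir-4951 (rank 638, 1061 bp), lncRNA:CR43334 of mir-ban, and asRNA:CR46194 of mir-281-1 and mir-281-2 (rank 82, signal 294.1, 1649 bp). The peaks at lncRNA:CR31044, lncRNA:CR43626 and lncRNA:CR43334 are those already counted near mir-279, mir-282 and mir-ban. Hosts with several starts have more chances of a nearby summit, and the background was not matched on this.

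Among protein-coding hosts on the same strand, 7 of 128 had a thresholded summit within 500 bp of a start (5.47%, 2.67 to 10.9%), beside 3.33% of all protein-coding genes. Their median number of starts was 2, against 1 for all protein-coding genes. The 7 were rdgA, a diacylglycerol kinase gene that hosts mir-4964 (24 bp, rank 215), CG45092 and chk, which share a start and host mir-4975 (28 bp, rank 644), Btk, a Tec-family kinase gene that hosts mir-2b-1 (57 bp, rank 329), spi, which encodes a ligand of the EGF receptor and hosts mir-2a-1, mir-2a-2 and mir-2b-2 (137 bp, rank 242), CG5953 with mir-4943 (366 bp, rank 539) and for, a cGMP-dependent protein kinase gene, with mir-4972 (418 bp, rank 590). The start of spi was between 5323 and 6026 bp from its hairpins, and that of Btk 38432 bp from mir-2b-1. None of these hairpins was itself bound. With peaks kept only where the 1000 strongest regions of every replicate overlapped them, the count was 3, and under that filter it was 5 without replicate 1, 4 without replicate 2 and 3 without replicate 3.

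Below the threshold, regions of the pooled list lay near many hairpins. A summit of any of its 30000 regions was within 2000 bp of 172 of 262 hairpins (65.6%, 59.7 to 71.1%), beside 60.8% of other short non-coding genes and 51.2% of tiles, and 90 hairpins had none. The median rank of the best region was 11409 over 146 distinct regions, beside 8380 over 323 for the other short non-coding genes. In replicates 1, 2 and 3 the medians were 9651.5, 10668 and 13017 (mean 11112 ± 1726, SD, n = 3). The list holds background regions, so presence in it is not a peak call.

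The first regions below the threshold were near mir-9378, in CG17124 (rank 770, signal 72.8), and near mir-13b-1, mir-13a and mir-2c (rank 871, signal 68.0). At mir-9378 the regions of replicates 1, 2 and 3 ranked 1189, 1607 and 764, and at the mir-13b-1 cluster 1711, 921 and 7249. The last thresholded region near a hairpin, at mir-9374, had rank 675 and a signal of 79.5, not far from these. Next came mir-4968 in Mob2 (937), mir-281-1 and mir-281-2 (972), mir-375 (1015), mir-308 in RpS23 (1295), mir-4949 in ATPsynC (1451), mir-2496 (1477), mir-8 (1698), mir-965 in kis (1765), mir-2501 (1839), mir-1012 (1961), mir-3643 (1969), mir-4917 (2115) and mir-2282 in sty (2473). None of these 15 regions held the palindrome within 100 bp of its summit.

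A further 12 hairpins had a thresholded summit between 2000 and 5000 bp away. With these, 8.78% of hairpins had a summit within 5000 bp, beside 5.12% of other short non-coding genes and 4.60% of tiles. The nearest was at mir-bft (2486 bp, rank 586), followed by mir-281-1 (2893 bp) and mir-281-2 (3111 bp), whose peak of rank 82 is the one 1649 bp from a start of asRNA:CR46194. At mir-989 the summit 4267 bp away belonged to the strongest peak of the list (signal 1202). The others were mir-4980, mir-1004, mir-970, mir-4972, mir-318, mir-994, mir-4943 and mir-1009, with ranks between 390 and 632.

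Grouped by known function, 0 of 16 hairpins of the Notch-related box families had a thresholded peak, 10 had a weaker pooled region with ranks from 871 to 11417, and 6 had none. Over all 262 hairpins the bound share was 4.20%, and the groups are too small for their counts to be read against it. By their letters, 15 hairpins carry a mature arm whose first 8 bases pair with TGTGAT, the K box, and 11 of them had a region, none thresholded. Of 4 whose arms pair with AGCTTTA of the Brd box (mir-4, mir-79, mir-9a, mir-9c) 1 had a region, mir-9a at rank 5436, and mir-7, which pairs with GTCTTCC of the GY box, had none in the pooled list. The regions at mir-2a-1, mir-2a-2 and mir-2b-2 in spi (rank 2897) and at mir-2b-1 in Btk (rank 4016) were below the threshold, although both hosts had a peak at their starts.

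Of 6 neural hairpins 2 were bound, mir-279 and mir-996, which share a peak. The others ranked 1698 at mir-8, which controls growth and Wnt signalling, 5436 at mir-9a, which restrains sensory organ precursors through senseless, 11610 at mir-184 and 18014 at mir-124. At mir-184 the summit lay inside the hairpin. At mir-8 the replicates were far apart, with ranks of 1131, 7246 and 14381. The muscle hairpins mir-1 and mir-133 had no pooled region. Neither had any of the 8 hairpins of the mir-309 cluster, which clears maternal messenger RNAs, although replicate 2 had a region of rank 13343 near all 8 and replicate 3 a region of rank 27994 near 6 of them. Of the 4 Hox-complex hairpins mir-iab-4 and mir-iab-8 were bound through the same peak, and mir-10 and mir-993 ranked 14414 and 15822. Of 12 growth and metabolism hairpins matched of 13 listed, mir-275 and mir-305 were bound, through the same peaks. A further 8 ranked from 8810 to 29965, and mir-278 and mir-276a had no pooled region. The list does not include mir-ban, which was bound.

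**Figure D4:**
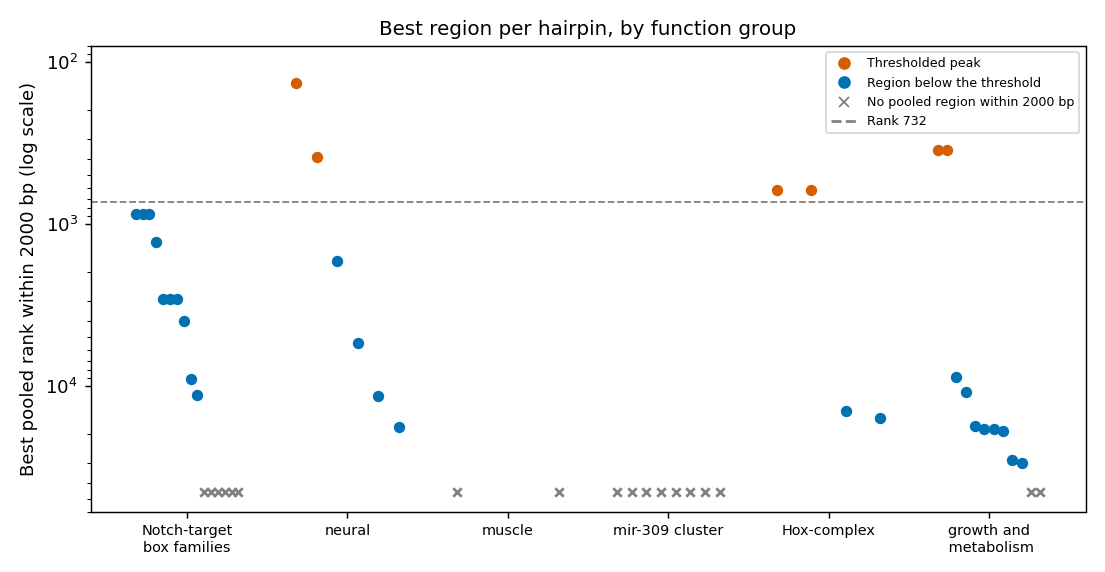
Best pooled rank within 2000 bp of each hairpin (log axis, strongest at the top), by function group, with thresholded peaks in orange, weaker regions in blue and hairpins without a region as crosses. The bound hairpins of the neural, Hox-complex and growth groups stand above the dashed line at the last thresholded rank, and no hairpin of the box families, the muscle group or the mir-309 cluster does.

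By chromosome arm, 5 of 58 hairpins were bound on 3R, where 2.02% of tiles had a thresholded summit within 2000 bp, and 3 of 56 on 2L, where 2.01% did. On 3L 2 of 31 were bound (1.72% of tiles), on X 1 of 58 (2.56%) and on 2R 0 of 55 (1.63%, with a Wilson interval for hairpins that reaches 6.53%). Bound hairpins on an arm share loci, and the arms were not compared by a test. None of the hairpins on chromosome 4 or on the ribosomal DNA contig, 2 each, was bound.

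Genes of the microRNA pathway were counted by the distance from their starts. Of 28 protein-coding genes of processing and silencing 2 had a thresholded summit within 1000 bp of a start (7.14%, 1.98 to 22.6%), beside 4.38% of all protein-coding genes, a share inside that interval. They were Dcr-2, the Dicer of the small interfering RNA pathway (375 bp, rank 377, signal 118.4), 1 of 13 processing genes, and AGO1, the Argonaute that carries microRNAs (754 bp, rank 502, signal 99.0), 1 of 15 effector genes. Under the filter on the 1000 strongest regions of every replicate the count was 1, and it was 2 without replicate 1 and 1 without replicate 2 or without replicate 3. At pasha, which encodes the partner of Drosha, the nearest summit was 1814 bp from a start (rank 567), while at drosha it was 39469 bp away.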

How the data were processed

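Per the labels, chromatin of embryos was sonicated to a size range of 200 to 800 and precipitated with an antibody against GFP. For each region the authors deposited a signal value and the offset of a summit, and per their accompanying text lists the peak calls drew on a control library, which was not analysed here. No label or file header names the aligner, the peak caller, the threshold for reproducibility or the depth. Only the dm6 lists were used, and no coordinate was converted from dm3.

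Regions were ranked by signal within each list. The distance from hairpin to summit was 0 inside the hairpin. Hosts and transcript starts came from Ensembl release 115 (BDGP 6.54), from which 485 entries of mature products were left out, and sequences from the RefSeq release 6 assembly, which annotates mature arms for 260 hairpins. For each peak the overlapping replicate region (at least 1 bp) with the nearest summit was taken. Shares carry Wilson 95% intervals, and no test was made. The distance calculation was tested on simulated data. Named hairpins were all bound ones, the next 15 regions by rank, and fixed groups by function, each with its host and the nearest protein-coding start. The CCAAT core and the hairpins between 2000 and 5000 bp were added after values were seen. The members and lists were chosen with earlier results of these data known. Alternatives comprised other distances, thresholds, windows and numbers of top regions, and leaving out each replicate. The software was pandas 2.3.3 and NumPy 2.4.6 under Python 3.11.15, with matplotlib 3.10.9 for plots and SciPy 1.17.1 for intervals.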

Additional observations from a re-analysis of the deposited data

How the results depend on the processing

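Of 64 alternative values 26 stayed close to the value reported (counts within 1.5 times, the median rank within the SD over replicates) and 38 did not. Apart from the hairpins found in every replicate, the values with a replicate left out also carry the filter on the 1000 strongest regions. They were set against the unfiltered values here, so for them the tally does not separate the filter from the replicate. With distances of 500, 1000 and 5000 bp the bound hairpins numbered 2, 7 and 23, the distinct peaks 2, 6 and 22, the hairpins found in every replicate 0, 2 and 11, and the peaks with CCAATTGG 0, 1 and 5. Hairpins with any pooled region numbered 64 within 500 bp and 111 within 1000 bp, and the median rank was 6767.5 within 5000 bp. With the 366 strongest peaks, 5 hairpins, 5 peaks, 3 coding hosts and 0 pathway genes were counted. With the 500 strongest regions of each replicate, 3 hairpins were found in every one. The palindrome was in 1 peak within 50 bp of the summit, in 5 within 200 bp and in 5 over the whole region. Coding hosts with a peak numbered 13 within 1000 bp of a start and 17 within 2000 bp, and pathway genes 1 within 500 bp. The cause of these shifts was not tested beyond the larger or smaller window or list itself.

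When peaks were kept only where the 1000 strongest regions of every replicate overlapped them, added after seeing the data, 5 hairpins, 6 peaks, 3 palindromes, 3 coding hosts and 1 pathway gene were counted. When each replicate was left out under that filter, the bound hairpins ranged from 5 to 9, the distinct peaks from 6 to 10, the coding hosts from 3 to 5, the pathway genes from 1 to 2 and the hairpins found in every replicate from 6 to 9, while the palindrome count was 3 each time. Keeping a single peak, the strongest, wherever summits were closer than 500 bp was tried after seeing the data and left 664 peaks, with 11 hairpins bound, 9 peaks near them and 3 palindromes. No paired analysis was possible because the series holds 1 group. The unknown depth means that hairpins without a region cannot be called unbound.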
